A study of Homo sapiens with 9 samples.

Results

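The transcriptome of SW480 colon cancer cells in which the BASP1 gene had been switched on by CRISPR activation was compared with that of the unmodified parental line. The comparison used every library of these lines, 6 of the 9 libraries of the series. SW480 is an established human line from a colon adenocarcinoma, and its libraries carried no introduced construct. The SW480-gRNA-B-all line, called the activated line here, carried 3 lentiviral components: the activator MS2-P65-HSF1 (selected with hygromycin), dCas9-VP64-GFP and a pool of guide RNAs directed to the BASP1 promoter (selected with puromycin). The study's methods describe single-cell cloning on GFP after the dCas9-VP64-GFP step, so this line descends from 1 clone, and no library of a line with the activators but without BASP1 guides was analysed here. Selection, cloning, the activator proteins and BASP1 itself therefore cannot be told apart in this comparison. A further line, SW480-B, expressed BASP1 from a plasmid after geneticin selection and is given beside single results only. By the study's methods it was also grown from a single-cell clone. A change shared by both lines therefore cannot be told apart from effects of selection and cloning. Each line gave 3 libraries, and nothing in the sources used here says that these came from separate cultures, so the p-values measure the spread between these libraries, which may be technical.

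In CRISPR activation a Cas9 protein that cannot cut DNA is brought to a promoter by a guide RNA and carries domains that recruit the transcription machinery, so that the cell's own gene is transcribed. BASP1 encodes a membrane-bound and actin-linked protein of growing nerve endings that also acts in the nucleus as a transcriptional corepressor. SW480 cells are epithelial: they carry keratin filaments, adhere to each other through junctions, and derive from an intestinal lining whose absorptive cells bear a brush border.

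Promoter stretches are given for 4 genes, the activated gene, the protein-coding gene with the largest rise among those at 1 CPM or more, 1 whose fall held whichever library was left out, and the gene with the largest fall. They are the 250 bases before the RefSeq start site in GRCh38.p14, 5′ to 3′ on the strand of the gene, and capitals mark matches on either strand to GGGCGG, the core of SP1 sites, or to CTTTGAT, the core of TCF/LEF sites.
BASP1 (chr5:17216573-17216822, plus strand): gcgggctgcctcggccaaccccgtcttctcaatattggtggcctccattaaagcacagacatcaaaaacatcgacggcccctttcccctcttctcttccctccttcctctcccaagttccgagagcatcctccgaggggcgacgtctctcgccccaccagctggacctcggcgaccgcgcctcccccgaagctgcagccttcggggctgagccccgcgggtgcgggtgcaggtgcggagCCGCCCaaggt
KISS1 (chr1:204196492-204196741, minus strand): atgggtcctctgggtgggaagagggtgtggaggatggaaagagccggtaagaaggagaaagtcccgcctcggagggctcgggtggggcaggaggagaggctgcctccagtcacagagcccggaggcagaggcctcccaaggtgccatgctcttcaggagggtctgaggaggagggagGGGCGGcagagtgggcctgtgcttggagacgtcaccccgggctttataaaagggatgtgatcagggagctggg
SP5 (chr2:170715087-170715336, plus strand): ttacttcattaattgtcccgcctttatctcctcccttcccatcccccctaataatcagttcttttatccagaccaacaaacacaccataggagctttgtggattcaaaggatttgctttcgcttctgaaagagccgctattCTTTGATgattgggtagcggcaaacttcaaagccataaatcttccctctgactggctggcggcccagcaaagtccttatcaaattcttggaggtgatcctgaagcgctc
PCDH19 (chrX:100410274-100410523, minus strand): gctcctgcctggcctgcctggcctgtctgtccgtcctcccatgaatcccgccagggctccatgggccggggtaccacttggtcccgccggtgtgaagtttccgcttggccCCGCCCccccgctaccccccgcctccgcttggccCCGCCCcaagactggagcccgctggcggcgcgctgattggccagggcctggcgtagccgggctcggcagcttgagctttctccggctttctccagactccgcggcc
The stretch before BASP1 held 21 CpG dinucleotides and 1 match to GGGCGG, that before KISS1 8 and 1, and that before PCDH19 21 and 2. The stretch before SP5 held 6 CpG dinucleotides, no match to GGGCGG and 1 match to CTTTGAT. RASL11B, ABHD12B and FGF3, whose falls also held whichever library was left out, had no match to CTTTGAT and 3, 1 and 4 to GGGCGG. Among the 11463 tested genes with such a stretch, 67.3% held GGGCGG and 1.31% held CTTTGAT.

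In the build of the files (GRCh37), BASP1 lies on chromosome 5, 17065707 to 17276952. BASP1 transcripts, as counts scaled by TMM to a common library size (CPM), stood at 11.9, 8.03 and 0.691 CPM in the parental libraries and at 167, 303 and 300.1 CPM in the activated ones. Each activated library lay above each parental one, and replicate 3 of SW480 was far below the other parental libraries. The log2 fold change was 5.21 (standard error 0.92, edgeR adjusted p = 0.025), but with 1 library omitted at a time the call held in 2 of 6 fits, and its adjusted p from edgeR reached 0.12 without replicate 2 of SW480. BASP1-AS1, a long noncoding RNA transcribed from the opposite strand of the BASP1 locus, had 0, 0 and 0.0364 CPM in SW480 and 3.08, 6.84 and 7.65 CPM in SW480-gRNA-B-all. Its ratio was 502 (95% counting interval 89.8 to 19878), with 1 count in all SW480 libraries together (edgeR adjusted p = 0.0071). The study itself measured BASP1-AS1 by qPCR and reported no significant activation, and the difference between these measurements was not tested. In SW480-B, where BASP1 comes from a plasmid, BASP1-AS1 was at 0 counts in each library while BASP1 had 268, 268 and 250.3 CPM. The strand setting of the counting is not stated, so reads of the overlapping pair may have been shared between them. MYO10, the next tested gene on 1 side of BASP1 and a motor protein of filopodia, fell from 482, 463 and 290.3 CPM to 183, 178 and 185 CPM, a log2 fold change of -1.19 (standard error 0.23, edgeR adjusted p = 0.03); it was singled out for its place.

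**Figure D1:**
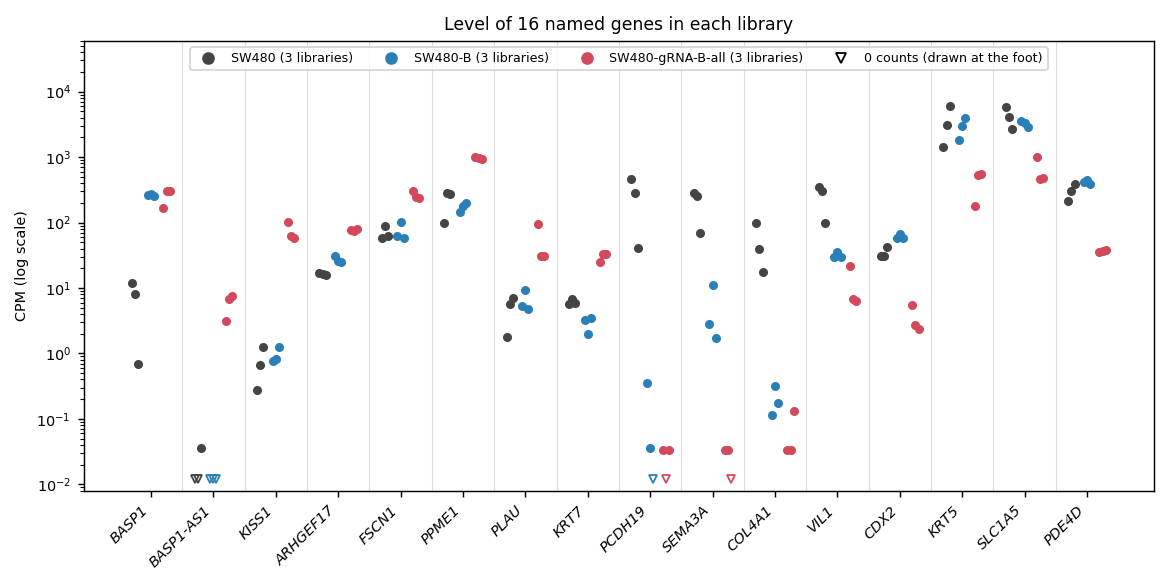
Level of 16 named genes in CPM (log axis), with 1 point per library of each line and open triangles for libraries with 0 counts. BASP1 is high in both BASP1-expressing lines, BASP1-AS1 and KISS1 are high only in the SW480-gRNA-B-all libraries, and the SW480 libraries spread widely for PCDH19, SEMA3A, COL4A1 and VIL1.

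The libraries held 27933387 to 29355669 counts on genes, at which 0 counts allow up to 0.107 CPM per library (3 counts, counting error only). The SW480 libraries differed from each other more than the activated ones did: 14.6% to 30.8% of genes differed by over 2-fold between SW480 libraries. For SW480-gRNA-B-all the share was 2.08% between replicates 2 and 3 and 11.1% and 11.3% between replicate 1 and the others. A chi-square per gene, expected at 1 under counting error alone, averaged 3.34 between replicates 2 and 3 and 130 to 340 between SW480 libraries. The main edgeR fit counts replicates 2 and 3 as separate samples, and its p-values rest on that. Replicate 3 of SW480 had the lowest of the parental levels for 607 of the 751 genes called lower and the highest for 159 of the 304 called higher, so that it stood nearest to the activated line. Intronic bases made up 5.57%, 4.60% and 3.61% of aligned bases in SW480 and 3.65% to 3.91% in SW480-gRNA-B-all, and the part of this in the results was not tested.

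Calls required an adjusted p under 0.05 together with a change of more than 2-fold. Among 16100 tested genes 1055 (6.55%) were called, 304 (1.89%) as higher and 751 (4.66%) as lower in the activated line, and in all of these the libraries of the lines did not overlap. Whatever the test, the lines did not overlap in 38.0% of genes, of which 2905 lay above and 3214 below SW480. These shares over all tested genes are the background to each list count below. Against SW480-B, with the same activated libraries, 2.31% of 15846 tested genes were called higher and 4.37% lower. The falls were larger than the rises: the median log2 fold change was -3.001 over the genes called lower and 1.99 over those called higher. Changes over 16-fold numbered 269 among the falls and 21 among the rises. In 70 of the genes called lower, the activated line had 0 counts in all libraries. The median log2 fold change of all tested genes was -0.05, and it moved by less than 0.1 under every other scaling and filter tried. Protein-coding genes made up 911 of the calls, and 108 were long noncoding RNAs. Fewer cells expressing a gene and less RNA of it per cell cannot be told apart in these bulk libraries.

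**Figure D2:**
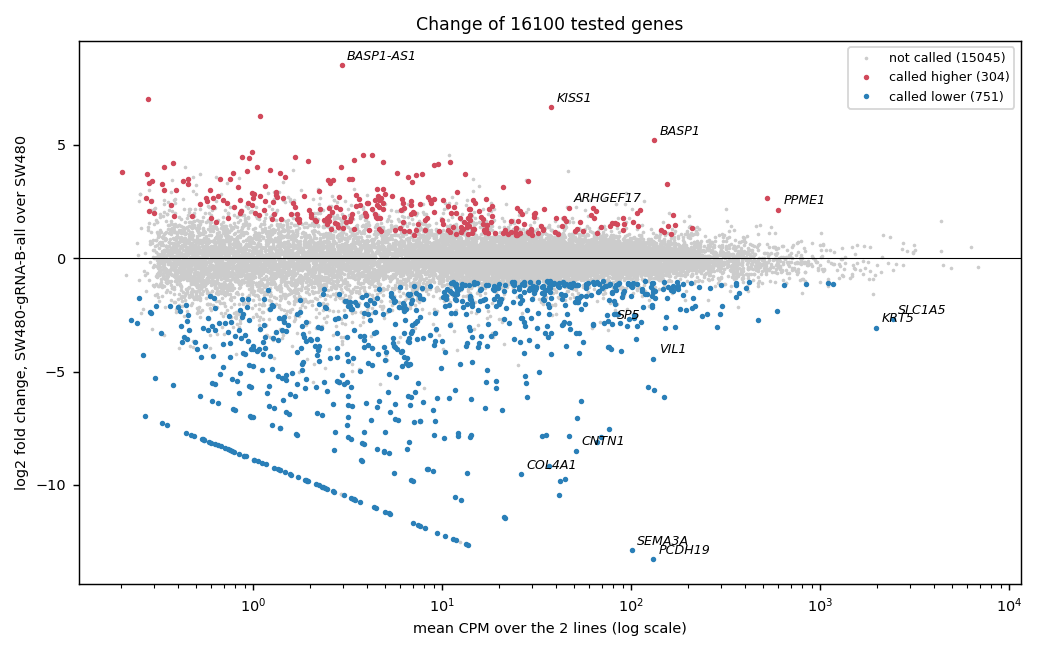
Log2 fold change (SW480-gRNA-B-all over SW480) of the 16100 tested genes against their mean CPM over the 6 libraries (log axis), with 304 genes called higher in red and 751 called lower in blue. The oblique row of blue points at the lower left holds genes with 0 counts in the activated line, whose fitted value depends on the prior count.

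Among called genes that averaged 1 CPM or more in the activated line, the largest rise after BASP1-AS1 was that of KISS1 (chromosome 1, 204159469 to 204165619, GRCh37), which encodes kisspeptin, a secreted peptide first known as a suppressor of metastasis. KISS1 had 0.275, 0.655 and 1.27 CPM in SW480 and 103, 61.8 and 58.9 CPM in the activated line. Its log2 fold change was 6.66 (edgeR adjusted p = 0.0054), and against SW480-B, over the same activated libraries, it was 6.27 (edgeR adjusted p = 2.0e-04). The lncRNA LINC00452 had 5.05, 0.835 and 0.568 CPM in the activated line against 2 counts in all SW480 libraries together, a ratio of 91.4 (95% counting interval 24.95 to 759.9), and replicate 1 was well above the others. PXDN, a peroxidase that crosslinks basement membrane collagen, rose from at most 0.172 CPM to 1.40 to 2.64 CPM, a log2 fold change of 4.68 (edgeR adjusted p = 0.025). CTF1, the cytokine cardiotrophin 1, rose by 4.48 on the log2 scale (edgeR adjusted p = 0.023), and PDE10A, a phosphodiesterase of both cyclic nucleotides, by 4.33 (edgeR adjusted p = 0.0089). NLRP3, the sensor of an inflammasome, went from 0.0345 to 0.275 CPM to 2.44 to 4.40 CPM, and CCRL2, a chemokine-binding receptor, from 0 to 0.172 CPM to 0.968 to 3.15 CPM. The remaining genes among the 12 largest rises at that level were the antisense RNA SERTAD4-AS1, the pseudogene NCOR1P1 and CCDC144NL, with log2 fold changes of 4.54, 4.56 and 4.28 (edgeR adjusted p = 0.037, 0.013 and 0.0078). Reads of NCOR1P1 and CCDC144NL may be shared with near copies, and those of SERTAD4-AS1 with the gene on the opposite strand.

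The 12 largest falls held adhesion molecules, guidance cues and channels of nerve cells, and they ended at or near 0 in the activated line. PCDH19 (chromosome X, 99546642 to 99665271, GRCh37), a protocadherin of neuronal adhesion, had 464, 281 and 41.4 CPM in SW480 and 0.0339, 0 and 0.0334 CPM in SW480-gRNA-B-all, a ratio of 11895 (95% counting interval 3293 to 98230.4) with 2 counts in the activated line (edgeR adjusted p = 0.0078). SEMA3A, a secreted repellent of axons, had 282, 251 and 70.2 CPM and 0.0339, 0.0334 and 0 CPM, a ratio of 9091 (95% counting interval 2516 to 75076) with edgeR adjusted p = 0.0047. For both, replicate 3 of SW480 was the lowest parental library and still far above every activated one. SEMA3D, of the same family, had 11.5, 37.9 and 12.7 CPM in SW480 and was at 0 counts in the activated line, at least 621-fold lower (3 counts over the line). By the same measure ADGRL2, an adhesion receptor of the latrophilin family, was at least 809-fold lower, CDH12, a neuronal cadherin, at least 694-fold, and SCN3A and CACNA2D1, subunits of voltage-gated sodium and calcium channels, at least 489.8-fold and 448-fold. BMP5, a bone morphogenetic protein, was at least 462-fold lower, IL31RA, a cytokine receptor chain, at least 567-fold, and PHYHIPL, LIX1 and the unnamed transcript ENSG00000267243 at least 829.9, 713 and 422-fold. The adjusted p of these 10 genes from edgeR ran from 0.011 to 0.045. In SW480-B, PCDH19 had 0.348, 0.0356 and 0 CPM, SEMA3D was at 0 counts and SEMA3A had 2.86, 11.1 and 1.73 CPM. Each of the 10 genes at 0 in the activated line had at most 0.389 CPM in any SW480-B library.

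Leaving out replicate 2 of SW480 or any replicate of the activated line removed most calls. Of the 206 called genes that the naming rule took up, 178, 8 and 204 were still called without replicates 1, 2 and 3 of SW480, and 50, 32 and 32 without those of SW480-gRNA-B-all. No call reversed its direction in these fits. Of the genes called, 8 were called in all 6 fits. ARHGEF17, an exchange factor for small GTPases of the cytoskeleton, was the only one that rose. It had 16.97, 16.2 and 15.8 CPM in SW480 and 77.02, 74.9 and 79.2 CPM in the activated line, a log2 fold change of 2.23 (standard error 0.14, edgeR adjusted p = 0.0035). Both lines were tight for this gene, and SW480-B lay between them at 31.3, 25.8 and 24.6 CPM. SP5, a transcription factor of the SP1 family that WNT signals induce, fell from 149.7, 131 and 137 CPM to 18.4, 17.96 and 19.5 CPM, a log2 fold change of -2.91 (standard error 0.15, edgeR adjusted p = 0.0028). ASCL2, which marks and maintains intestinal stem cells, fell from 61.5, 44.6 and 54.5 CPM to 3.22, 5.37 and 4.51 CPM (-3.62 on the log2 scale, edgeR adjusted p = 0.0047). The lines did not overlap in either gene, and SW480-B was intermediate for both, at 68.6 to 87.04 CPM and 22.7 to 28.8 CPM. ABHD12B, a serine hydrolase of the lysophospholipase type, fell from 146, 112 and 121 CPM to 22.3, 22.2 and 22.8 CPM, a log2 fold change of -2.50 (standard error 0.16, edgeR adjusted p = 0.0035), while SW480-B kept 108 to 142 CPM. RASL11B, a small RAS-like GTPase, fell from 13.7 to 18.9 CPM to 1.17 to 1.22 CPM (-3.83 on the log2 scale, edgeR adjusted p = 0.0038). FGF3, a fibroblast growth factor of embryonic tissues, fell from 153, 55.7 and 93.95 CPM to 4.23, 6.14 and 6.24 CPM, a log2 fold change of -4.19 (standard error 0.42, edgeR adjusted p = 0.0071). PDGFC, a platelet-derived growth factor, went from 15.9, 17.6 and 8.69 CPM to 0.102, 0.100 and 0.0668 CPM (-7.24 on the log2 scale, edgeR adjusted p = 0.0035). PPP1R1B, the phosphatase inhibitor DARPP-32, had 21.00, 21.1 and 11.7 CPM in SW480 and 2 counts in the activated line, a ratio of 807 (95% counting interval 223 to 6668). PDGFC and PPP1R1B were also low in SW480-B, at 0.0707 to 0.891 CPM and 0 to 0.107 CPM.

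Colon epithelial identity was checked with 11 markers, of which 8 passed the filter. EPCAM, KRT8, KRT18 and KRT19, which mark simple epithelia, were present in both lines. KRT8 had 4765, 4724 and 5287 CPM in SW480 and 3547, 4309 and 4299 CPM in SW480-gRNA-B-all, and EPCAM had 751, 578 and 460.3 CPM and 434, 348 and 340.4 CPM. Neither was called, with log2 fold changes of -0.29 (edgeR adjusted p = 0.41) and -0.68 (edgeR adjusted p = 0.12). CDH1, the E-cadherin of adherens junctions, had 21.4, 37.4 and 72.9 CPM and 21.00, 28.4 and 25.1 CPM, and its groups overlapped (edgeR adjusted p = 0.24). The intestinal markers on the list that could be tested were called lower. CDX2, the homeobox factor that sets intestinal identity, had 30.4, 30.7 and 41.9 CPM in SW480 and 5.52, 2.70 and 2.37 CPM in the activated line, a log2 fold change of -3.28 (standard error 0.38, edgeR adjusted p = 0.009); in SW480-B it was at 58.2 to 67.4 CPM. VIL1, the villin that bundles actin in the brush border, fell from 344, 308 and 98.8 CPM to 21.5, 6.81 and 6.34 CPM, a log2 fold change of -4.44 (standard error 0.70, edgeR adjusted p = 0.019). CDH17, the liver-intestine cadherin, had 18.3, 6.17 and 1.64 CPM in SW480 and 0 counts in the activated line, at least 263-fold lower (edgeR adjusted p = 0.033). CDX1, LGALS4 and CEACAM5 were too low to test, with 26, 40 and 0 counts over the SW480 libraries. Summed over the marker lists, fibroblast and smooth muscle genes made up 8.18 to 11.02 CPM in SW480 and 11.98 to 17.6 CPM in SW480-gRNA-B-all. Leukocyte genes made up 4.51 to 6.37 and 3.05 to 4.47 CPM, and endothelial genes 1.24 to 3.53 and 3.71 to 7.11 CPM. COL3A1, CLDN5, EMCN, MS4A1, FCGR3A and NKG7 were at 0 counts in both lines.

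Of 43 enterocyte and brush border genes, 30 were too low to test in these cells. Of the 13 enterocyte and brush border genes tested, 8 were called, each of them lower. Beside CDX2, VIL1 and CDH17 these included the brush border adhesion and scaffold genes CDHR2 and ANKS4B, the tetraspanin TSPAN8, and ESPN, an actin bundler. CDHR2 had 19.1, 9.89 and 1.67 CPM and 0.339, 0.134 and 0.0334 CPM, a log2 fold change of -5.90 (edgeR adjusted p = 0.029). In each of these named genes but CDX2, replicate 3 of SW480 was the lowest parental library. Of the 13 goblet and mucin genes tested, 2 were called, each of them lower: MUC5B, a gel-forming mucin, at -5.22 on the log2 scale (edgeR adjusted p = 0.021), and FOXA2, a forkhead factor of endoderm, at -3.29 (edgeR adjusted p = 0.02). Of the 10 enteroendocrine genes tested, 1 was called lower, and 3 lay above and 3 below SW480 in every library. Over all 16100 tested genes, 6.55% were called, 2905 lay above and 3214 below. The call was NEUROD1, a factor of hormone-secreting cells, at 0 counts in the activated line and at least 32.7-fold lower. CHGB, a chromogranin of secretory granules, had 1.93, 2.83 and 1.31 CPM in SW480 and 6.54, 3.77 and 4.91 CPM in the activated line without overlap, and was not called by edgeR (adjusted p = 0.088) but was by DESeq2 (adjusted p = 0.011).

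Keratins were called in both directions. Of the 17 keratins tested, 1 was called higher and 4 lower, and the median of the list was -0.98 on the log2 scale. KRT5, a keratin of basal cells, had 1433, 3054 and 6084 CPM in SW480 and 177, 542 and 549 CPM in SW480-gRNA-B-all. Every activated library was below every parental one, and replicate 3 was the highest of SW480. The log2 fold change of KRT5 was -3.07 (standard error 0.66, edgeR adjusted p = 0.039). KRT13 fell from 51.2, 132 and 322 CPM to 30.99, 14.9 and 17.1 CPM (-3.01 on the log2 scale, edgeR adjusted p = 0.043). KRT6A and KRT17, keratins of stressed or wounded epithelium, fell from 11.3 to 16.3 and 2.11 to 11.3 CPM to 0.100 to 0.305 and 0 to 0.0339 CPM (edgeR adjusted p = 0.0054 and 0.01). KRT7, a keratin of simple ductal epithelia, rose from 5.78, 6.75 and 5.97 CPM to 24.9, 32.8 and 33.3 CPM, a log2 fold change of 2.29 (standard error 0.21, edgeR adjusted p = 0.0054). In SW480-B KRT7 was at 1.996 to 3.46 CPM, and against that line the log2 fold change was 3.38 (edgeR adjusted p = 9.9e-04). Keratin genes lie in families of near copies, and how such reads were counted is not stated.

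Of the 40 epithelial junction genes tested, 1 was called higher and 6 lower. Most of the falls lay in gap junctions and desmosomes. GJA1, connexin 43, had 5.27, 9.85 and 6.91 CPM in SW480 and 0 counts in the activated line, at least 219-fold lower, and was at 0 in SW480-B as well. GJB1, connexin 32, fell from 143, 141 and 127 CPM to 31.4, 47.6 and 45.98 CPM, a log2 fold change of -1.72 (standard error 0.20, edgeR adjusted p = 0.0089). The desmosomal cadherins DSC2 and DSG2 fell with log2 fold changes of -7.18 and -1.76 (edgeR adjusted p = 0.014 and 0.026), DSC2 to at most 0.203 CPM. CGNL1, a tight junction scaffold, and PERP, a desmosome component, were also called lower, at -5.49 (edgeR adjusted p = 0.023) and -1.01 (edgeR adjusted p = 0.016). TJP3, the tight junction scaffold ZO-3, rose from 7.09, 5.48 and 7.42 CPM to 18.3, 23.4 and 22.8 CPM, a log2 fold change of 1.68 (standard error 0.22, edgeR adjusted p = 0.013).

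Genes of contact with the substrate held few calls by edgeR. Of the 45 focal adhesion and stress fibre genes tested, edgeR called 3, each of them higher, a share near the 6.55% of all genes. DESeq2 called 9 higher and 2 lower, against 818 higher and 1282 lower of the 16100 tested genes. Of the 45, 18 were above and 5 below SW480 in every library, against 2905 above and 3214 below of the 16100 tested genes. The list median was 0.44. TPM1, a tropomyosin of stress fibres, had 31.9, 38.01 and 53.03 CPM in SW480 and 119, 153 and 147 CPM in SW480-gRNA-B-all. The lines did not overlap, and SW480-B was lower than both at 16.6 to 25.8 CPM. The log2 fold change of TPM1 was 1.76 (standard error 0.23, edgeR adjusted p = 0.012). LIMS2, a partner of integrin-linked kinase, and TNS1, a tensin that ties integrins to actin, rose by 2.35 and 2.12 on the log2 scale (edgeR adjusted p = 0.048 and 0.046). FSCN1, fascin, which bundles actin in filopodia and is not on that list, rose from 59.01, 88.2 and 61.4 CPM to 305, 243 and 237 CPM, a log2 fold change of 1.90 (standard error 0.22, edgeR adjusted p = 0.009). Its call held in 5 of 6 fits with 1 library omitted. Of the 31 matrix proteases and their inhibitors tested, 2 were called higher and 1 lower. PLAU, the protease urokinase, had 1.76, 5.69 and 7.13 CPM in SW480 and 94.3, 30.6 and 30.4 CPM in SW480-gRNA-B-all. It was highest in replicate 1 of the activated line and lowest in replicate 1 of SW480. The log2 fold change of PLAU was 3.41 (standard error 0.68, edgeR adjusted p = 0.033). TMPRSS2, a membrane serine protease, fell with a log2 fold change of -3.75 (edgeR adjusted p = 0.016). Of the 39 collagen, laminin and other matrix genes tested, 2 were called higher and 1 lower: COL4A3 and COL1A1 at 3.04 (edgeR adjusted p = 0.021) and 1.21 (edgeR adjusted p = 0.036), and COL4A1, a chain of the common basement membrane collagen, from 99.2, 40.04 and 17.8 CPM to 0.0339, 0.0334 and 0.134 CPM at -9.53 (edgeR adjusted p = 0.0073). Of the 16 mesenchymal and EMT genes tested, edgeR called 1, which was lower, and the list median was -0.53. DESeq2 called 6 lower and 0 higher, against 1282 and 818 of the 16100 tested genes. CDH11, a mesenchymal cadherin and the gene called by edgeR, fell from 12.7 to 45.3 CPM to 0 to 0.305 CPM. VIM, vimentin, had 51.5, 421 and 746 CPM and 481, 430.5 and 427 CPM and was not called (edgeR adjusted p = 0.92).

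Some regulators of the cytoskeleton and target genes of YAP, which responds to tension, were called. VAV1, an exchange factor for small GTPases best known from blood cells, rose from 1.48, 0.758 and 0.618 CPM to 7.38, 8.21 and 8.52 CPM, a log2 fold change of 3.06 (standard error 0.41, edgeR adjusted p = 0.013). RAC2, PAK6 and PREX1, a RAC GTPase, a kinase it and CDC42 can bind and a RAC exchange factor, rose by 2.58, 1.35 and 1.15 on the log2 scale (edgeR adjusted p = 0.04, 0.04 and 0.026). DOCK4, also a RAC exchange factor, fell with a log2 fold change of -1.97 (edgeR adjusted p = 0.032). Of the 27 YAP and TAZ target genes tested, edgeR called 3 (11.1%), each of them higher, against 6.55% of all tested genes. DESeq2 called 8 higher and 2 lower, against 818 and 1282 of the 16100 tested genes. Of the 27, 12 were above and 2 below SW480 in every library, against 2905 and 3214 of all tested genes. The list median was 0.62. ARHGEF17, which lies in a run of rises on chromosome 11, was among those that edgeR called. CCN1, a secreted matrix protein, had 5.47, 33.4 and 48.6 CPM in SW480 and 189, 321 and 330.4 CPM in the activated line, a log2 fold change of 3.26 (standard error 0.73, edgeR adjusted p = 0.043). Replicate 1 was the lowest library in both lines, and the lines did not overlap. F3, tissue factor, rose from 4.13, 10.5 and 14.4 CPM to 42.6, 40.2 and 42.3 CPM (2.10 on the log2 scale, edgeR adjusted p = 0.034). CCN2, a close relative of CCN1 on the same list, was not called (log2 fold change 0.62, edgeR adjusted p = 0.52).

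Of the 34 growth factors and their binding proteins tested, 5 were called higher and 7 lower. The genes called higher were CCN1, CSF1, which sustains macrophages, PGF, a placental growth factor, ANGPTL4 and the neurotrophin NTF4. CSF1 rose from 0.998, 1.10 and 1.42 CPM to 6.47, 5.44 and 5.64 CPM, a log2 fold change of 2.31 (standard error 0.31, edgeR adjusted p = 0.013). The falls included fibroblast growth factors. FGF20 fell from 15.01, 16.9 and 19.2 CPM to 0.982, 1.40 and 1.64 CPM and FGF18 from 19.04, 17.5 and 9.64 CPM to 3.52, 2.64 and 2.57 CPM, with log2 fold changes of -3.67 (edgeR adjusted p = 0.0054) and -2.41 (edgeR adjusted p = 0.015). IGF2, the imprinted insulin-like growth factor, had 20.1, 121 and 22.4 CPM in SW480 and 1.93, 1.03 and 0.668 CPM in SW480-gRNA-B-all. Replicate 2 of SW480 stood well above the other parental libraries, and all of them lay above the activated ones (-5.50 on the log2 scale, edgeR adjusted p = 0.022). KITLG, the ligand of KIT, fell with a log2 fold change of -2.40 (edgeR adjusted p = 0.029). Of the 32 receptor tyrosine kinases tested, 2 were called higher and 4 lower. Among ephrin receptors, which sort cells along the crypt, EPHB2 rose from 10.7, 18.6 and 30.3 CPM to 56.5, 72.4 and 75.2 CPM (log2 fold change 1.77, edgeR adjusted p = 0.036), while EPHB3 (log2 fold change -1.08, edgeR adjusted p = 0.038) and EPHB6 (log2 fold change -2.87, edgeR adjusted p = 0.0054) fell. NTRK2, the receptor of the neurotrophins BDNF and NTF4, fell from 7.71, 23.02 and 24.5 CPM to 0.847, 1.74 and 1.77 CPM, and FGFR4 fell with a log2 fold change of -1.49 (edgeR adjusted p = 0.016 and 0.049). LTK rose by 2.69 (edgeR adjusted p = 0.013).

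In developmental pathways other than WNT, more genes were called lower than higher, as over all tested genes (4.66% lower and 1.89% higher). Called were 22.6% of the Notch, 14.9% of the TGF-beta and BMP and 7.69% of the Hedgehog genes, against 6.55% of all. Of the 31 Notch pathway genes tested, 7 were called, each of them lower. The ligands JAG1 and JAG2, the receptor NOTCH1, LFNG, a sugar transferase that modifies the receptor, and the targets or relatives HES5, HES6 and HEY2 were those called lower. LFNG had 86.2, 77.4 and 42.7 CPM in SW480 and 6.81, 6.74 and 7.35 CPM in the activated line, a log2 fold change of -3.31 (standard error 0.30, edgeR adjusted p = 0.0054). JAG2 had 193, 128 and 75.4 CPM and 23.1, 16.96 and 17.6 CPM, a log2 fold change of -2.79 (standard error 0.36, edgeR adjusted p = 0.012). The lines did not overlap in either gene, and SW480-B had 4.68 to 8.02 CPM of LFNG and 30.3 to 48.7 CPM of JAG2. JAG1 and NOTCH1 fell with log2 fold changes of -1.93 and -2.17 (edgeR adjusted p = 0.028 and 0.014). Of the 47 TGF-beta and BMP pathway genes tested, 1 was called higher and 6 lower. BAMBI, a decoy receptor that dampens TGF-beta signals, fell from 152, 155 and 201 CPM to 19.3, 28.8 and 30.3 CPM, a log2 fold change of -2.70 (standard error 0.23, edgeR adjusted p = 0.0054). SW480-B stayed with the parental line at 155 to 226 CPM. The activin subunits INHBA and INHBB fell with log2 fold changes of -4.21 and -3.005 and BMP2 with -3.93 (edgeR adjusted p = 0.021, 0.034 and 0.015). SMAD6, an inhibitor of BMP signals, rose by 1.52 (edgeR adjusted p = 0.037). Of the 13 Hedgehog pathway genes tested, 1 was called lower, PTCH1, the Hedgehog receptor, at -1.20 (edgeR adjusted p = 0.032).

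Cyclic nucleotide enzymes changed in both directions. Of the 25 cyclic nucleotide enzymes tested, 2 were called higher and 4 lower. PDE4D, a phosphodiesterase that breaks down cAMP, had 211, 305 and 391 CPM in SW480, 414, 455 and 387 CPM in SW480-B and 36.00, 37.02 and 38.4 CPM in SW480-gRNA-B-all. The activated libraries were tight and far below both other lines, with a log2 fold change of -3.03 (standard error 0.25, edgeR adjusted p = 0.0054) against SW480 and of -3.50 (edgeR adjusted p = 1.2e-04) against SW480-B. PDE4B and PDE5A fell with log2 fold changes of -5.42 and -2.05, and ADCY7, an adenylyl cyclase that makes cAMP, rose by 2.15 (edgeR adjusted p = 0.02, 0.018 and 0.038). RAPGEF4, a cAMP-activated exchange factor for RAP GTPases, fell with a log2 fold change of -1.51 (edgeR adjusted p = 0.028). Of the 30 G protein-coupled receptors of epithelia tested, 2 were called higher and 5 lower. The histamine receptor HRH1 rose from 2.79, 5.24 and 6.22 CPM to 15.8, 15.9 and 13.9 CPM (log2 fold change 1.67, edgeR adjusted p = 0.032) and ADGRG6 by 1.37 (edgeR adjusted p = 0.036). CHRM3, the muscarinic receptor of gut epithelium, had 39.1, 9.10 and 1.93 CPM in SW480 and 2 counts in the activated line, a ratio of 759.8 (95% counting interval 209.96 to 6280.1). ADRA2C, an adrenergic receptor, fell from 186, 106 and 105 CPM to 41.1, 27.8 and 29.3 CPM (log2 fold change -2.02, edgeR adjusted p = 0.016).

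BASP1 itself belongs to the neuronal growth-associated proteins, and several genes of nerve cells that SW480 transcribed were called lower in the activated line. Those at or near 0 there passed the filter only through their SW480 counts, so that they could only be called lower. Of the 25 immunoglobulin and neural adhesion molecules tested, 8 (32%) were called, each of them lower, with a median of -1.09. Over all tested genes 4.66% were called lower. CNTN1, contactin 1, had 153, 126 and 27.2 CPM in SW480 and 0.508, 0.134 and 0.200 CPM in the activated line, a log2 fold change of -8.50 (standard error 0.89, edgeR adjusted p = 0.0078). PCDH9 and CHL1 were at 0 counts in the activated line and at least 270.3-fold and 46.7-fold lower, and NCAM1 fell with a log2 fold change of -2.80 (edgeR adjusted p = 0.024). Of the 29 neurite growth and cytoskeleton genes tested, 7 (24.1%) were called, each of them lower. GAP43, a growth cone protein of the same functional class as BASP1, had 2.995, 2.93 and 1.13 CPM in SW480 and 0.508, 0.367 and 0.267 CPM in the activated line, a log2 fold change of -2.62 (standard error 0.52, edgeR adjusted p = 0.033). DPYSL3, a collapsin response mediator, fell from 151, 193 and 84.2 CPM to 7.49, 10.2 and 10.8 CPM, a log2 fold change of -3.92 (standard error 0.35, edgeR adjusted p = 0.0054). MAP2, a dendritic microtubule protein, and ELAVL2, a neuronal RNA-binding protein, fell with log2 fold changes of -5.11 and -5.68 (edgeR adjusted p = 0.04 and 0.012). Of the 39 synaptic vesicle and synapse genes tested, 2 were called higher and 4 lower. SYT1, the calcium sensor of synaptic vesicles, had 187, 93.4 and 40.99 CPM in SW480 and 3.93, 0.134 and 0.0668 CPM in SW480-gRNA-B-all, where replicate 1 stood above the others (log2 fold change -6.29, edgeR adjusted p = 0.043). NRXN3, a synaptic adhesion protein, fell to 0.0668 to 0.237 CPM (edgeR adjusted p = 0.009). DLG4, the postsynaptic scaffold PSD-95, rose from 3.72, 4.72 and 5.82 CPM to 31.6, 27.4 and 29.5 CPM, a log2 fold change of 2.63 (standard error 0.23, edgeR adjusted p = 0.0054), and SV2A, a vesicle glycoprotein, by 1.10 (edgeR adjusted p = 0.034).

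Of the 40 ion channels tested, 7 were called, each of them lower, or 17.5% against 6.55% of all tested genes. Yet 16 were above and 7 below SW480 in every library, against 2905 above and 3214 below of the 16100 tested genes. Beside SCN3A and CACNA2D1, the potassium channels KCNJ2 and KCNJ8 and the sodium channel SCN9A were called lower (edgeR adjusted p = 0.016, 0.017 and 0.0498). KCNJ8 had 0.826, 1.69 and 3.06 CPM in SW480, 14.8, 18.9 and 6.36 CPM in SW480-B and 3 counts in the activated line, a ratio of 54.7 (95% counting interval 18.4 to 268) against SW480. Of the 37 amino acid and sugar transporters tested, 6 were called, each of them lower. SLC1A5, the glutamine transporter ASCT2, had 5827, 4088 and 2676 CPM in SW480 and 1018, 467 and 479 CPM in the activated line, a log2 fold change of -2.69 (standard error 0.45, edgeR adjusted p = 0.022). In SW480-B it had 3519.8, 3379 and 2868 CPM, and against that line the log2 fold change was -2.32 (edgeR adjusted p = 0.0066). SLC7A8, a carrier of neutral amino acids, and SLC7A2, a carrier of cationic ones, fell with log2 fold changes of -1.75 and -2.27 (edgeR adjusted p = 0.034 and 0.038). SLC16A7, a monocarboxylate carrier, was left with 2 counts, a ratio of 286 (95% counting interval 78.9 to 2371). Of the 20 ABC transporters tested, 1 was called higher and 1 lower: ABCA7, a lipid transporter, rose (log2 fold change 1.06, edgeR adjusted p = 0.025), and ABCB1, the multidrug efflux pump, fell from 191, 95.3 and 22.4 CPM to 8.03, 8.15 and 7.68 CPM (log2 fold change -3.70, edgeR adjusted p = 0.03).

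**Figure D3:**
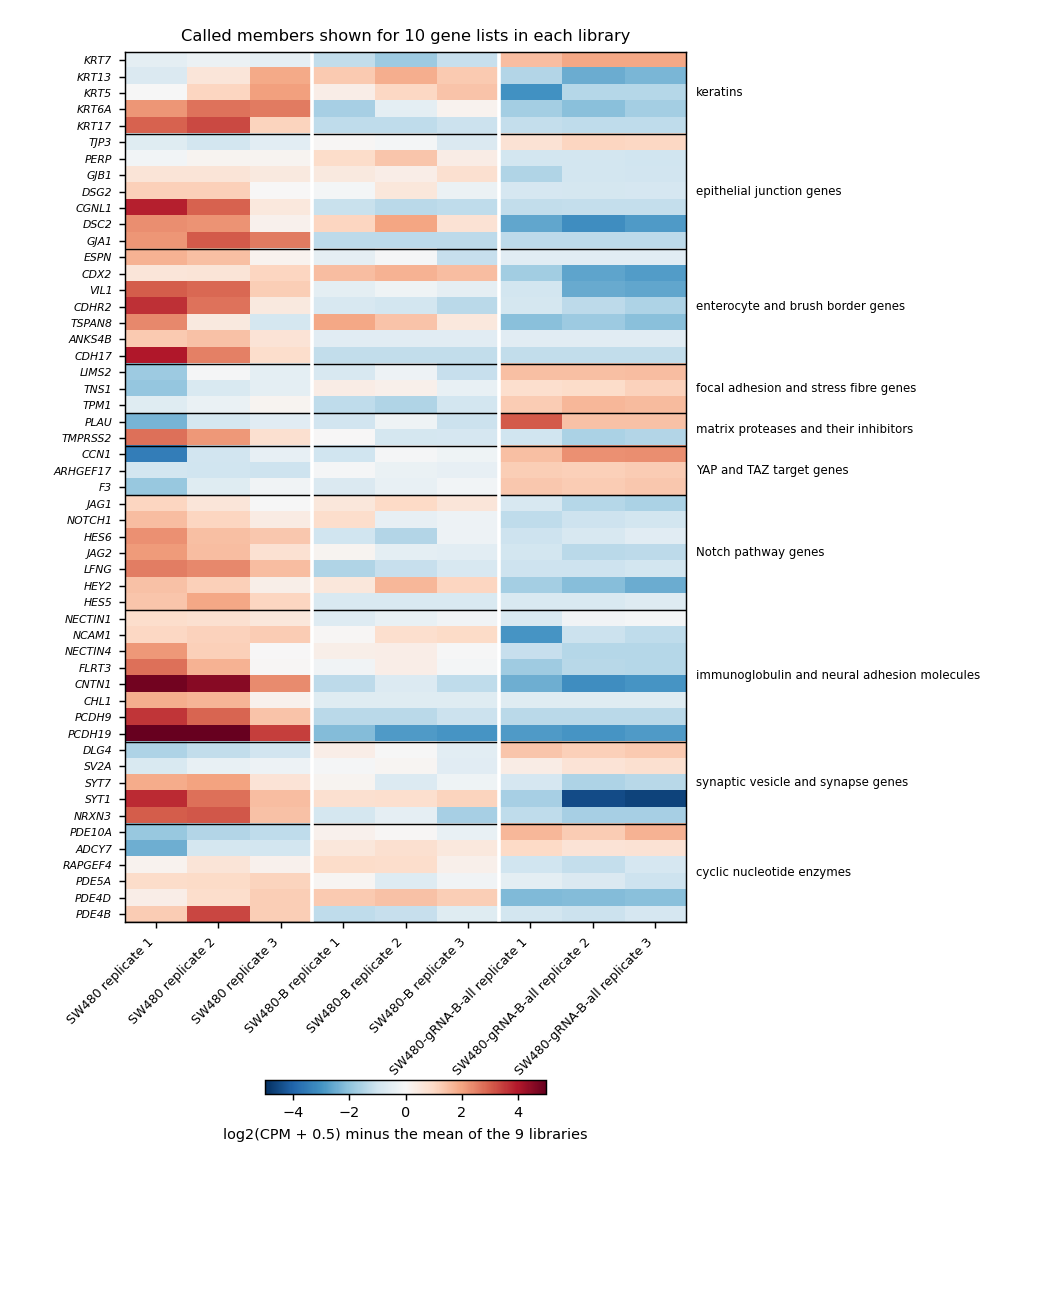
Called members shown for 10 gene lists in the 9 libraries, coloured by log2(CPM + 0.5) minus the mean of the 9 libraries, in which red is above and blue below that mean and values past 5 share the darkest colour. Most brush border, Notch and neural adhesion genes are high in SW480 replicates 1 and 2 and nearer to the mean in replicate 3, and SW480-B resembles the activated line in some rows, such as PCDH9 and GJA1, and SW480 in others, such as CDX2 and PDE4D.

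Metabolic lists differed in their share of calls by edgeR, beside 6.55% of all tested genes. In lists of 13 to 25 genes, holding no call is close to that share. Of the glycolysis genes 4% were called, of the hypoxia response genes 15.4% and of the oxidative stress genes 5.56%. For the xenobiotic enzymes the share was 20.6% and for the glycosyltransferases 13.2%. By edgeR none of the tested genes of cholesterol synthesis and uptake (25), of serine, glycine and one-carbon metabolism (22) or of the mitochondrial genome (13) was called, with medians of -0.39, -0.36 and 0.48. At an unadjusted p under 0.05 they held 4, 1 and 0 genes. By DESeq2, 1 gene of each of the cholesterol and one-carbon lists was called, both lower. Of the 25 glycolysis genes tested, 1 was called lower: PDK3, a kinase that turns off pyruvate dehydrogenase, from 74.1, 39.8 and 20.8 CPM to 7.05, 8.01 and 6.51 CPM (log2 fold change -2.65, edgeR adjusted p = 0.023). GAPDH had 5589, 5638 and 5598 CPM in SW480 and 3318, 4694 and 4650.4 CPM in SW480-gRNA-B-all (edgeR adjusted p = 0.29). Of the 26 hypoxia response genes tested, 2 were called higher and 2 lower, the rises being ANGPTL4 and CA12 and the falls the oxygen-sensing hydroxylases EGLN1 and EGLN3. Of the 36 oxidative stress and glutathione genes tested, 2 were called, each of them lower. GPX2, the glutathione peroxidase of gut epithelium, had 136, 108 and 37.4 CPM in SW480 and 1.05, 0.100 and 0.0668 CPM in the activated line, a log2 fold change of -7.85 (standard error 1.03, edgeR adjusted p = 0.013), and MGST1 fell with a log2 fold change of -3.02 (edgeR adjusted p = 0.02). Of the 34 xenobiotic and retinoid enzymes tested, 1 was called higher and 6 lower; AKR1C3, a steroid and prostaglandin reductase, fell from 42.9, 7.13 and 2.98 CPM to 0.0334 to 0.271 CPM and AHRR, the repressor of the aryl hydrocarbon receptor, from 139.9, 66.1 and 24.9 CPM to 15.1, 7.64 and 7.85 CPM (edgeR adjusted p = 0.03 and 0.04). Of the 38 sialyl, fucosyl and mucin-type glycosyltransferases tested, 3 were called higher and 2 lower. FUT2, which adds the fucose of secreted blood group antigens, rose from 0.516, 0.482 and 0.509 CPM to 4.13, 3.84 and 3.97 CPM (log2 fold change 2.97, edgeR adjusted p = 0.0078), ST3GAL1 and GALNT5 rose by 1.999 and 3.48, and FUT4 fell with a log2 fold change of -1.21 (edgeR adjusted p = 0.037, 0.029 and 0.035).

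HSF1, the master factor of the heat shock response, had 76.9, 92.8 and 85.6 CPM in SW480, 70.3, 99.6 and 79.2 CPM in SW480-B and 209, 230.1 and 243 CPM in SW480-gRNA-B-all. The lines did not overlap, and the log2 fold change was 1.41 (standard error 0.15, edgeR adjusted p = 0.0078). The activated line carries the MS2-P65-HSF1 transgene, which encodes part of HSF1, so that reads of the transgene and of the gene cannot be told apart in these counts. RELA, which encodes p65, was singled out for the same reason and had 82.7, 98.7 and 96.1 CPM in SW480 and 109, 101 and 96.9 CPM in the activated line, a log2 fold change of 0.14 (standard error 0.14, edgeR adjusted p = 0.55). Of the 26 tested heat shock and chaperone genes, edgeR called HSF1 alone, and DESeq2 called 3, each of them higher. HSPA1A, an inducible chaperone, had 3.55, 24.2 and 94.2 CPM and 44.8, 108 and 105 CPM and HSPA8 879, 2311 and 4414 CPM and 2479, 3598 and 3543 CPM, with overlapping groups. None of the 23 tested genes of the unfolded protein response, the 23 of the ATF4 response or the 26 p53 target genes was called by edgeR. At an unadjusted p under 0.05 these lists held 5, 2 and 5 genes, and DESeq2 called 0, 1 and 0. ASNS, the asparagine synthetase induced by ATF4, ran from 1369, 569 and 66.02 CPM in SW480 to 827, 59.8 and 59.8 CPM in SW480-gRNA-B-all, a spread within each line of over 10-fold. Of 30 apoptosis regulators 2 were called lower, BCL2 at -2.43 (edgeR adjusted p = 0.025) and BCL2L11, which encodes BIM, at -1.06 (edgeR adjusted p = 0.044). Of the 38 lysosome and autophagy genes tested, 1 was called lower, although 12 were above and 1 below SW480 in every library and the median was 0.27. Over all 16100 tested genes, 6.55% were called, 2905 were above and 3214 below. CTSC, a lysosomal peptidase, was the gene called and fell from 175, 133 and 71.5 CPM to 15.2, 19.03 and 18.03 CPM (log2 fold change -2.87, edgeR adjusted p = 0.0091).

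Most lists of cell division and growth held no call by edgeR, beside 6.55% of all tested genes. Of 43 DNA replication genes, 48 mitosis genes and 40 ribosome biogenesis genes edgeR called none, 7, 2 and 11 had an unadjusted p under 0.05, and DESeq2 called 2 of the first list, both higher, and 0 of the others. MKI67 had 321, 715 and 954 CPM in SW480 and 381, 868 and 899 CPM in the activated line, a log2 fold change of 0.10 (standard error 0.47, edgeR adjusted p = 0.9). Summed over the mitosis list, libraries ran from 5785.2 to 12497.1 CPM in SW480 and from 5659.1 to 11774.5 CPM in the activated line. The replication list ran from 3730.9 to 7805.8 CPM within SW480. With such a spread within a line, the absence of calls in these lists does not show that their genes were unchanged. Ribosome biogenesis genes had a median of -0.24, and 14 of the 40 were below SW480 in every library against 3214 of the 16100 tested genes. Of the 26 cyclins and cyclin-dependent kinase inhibitors tested, 2 were called, each of them lower. CDK6, a kinase that drives entry into the cell cycle, had 744, 596 and 189.7 CPM in SW480 and 66.7, 60.2 and 59.2 CPM in the activated line, a log2 fold change of -3.05 (standard error 0.49, edgeR adjusted p = 0.019), and CDKN1C, an inhibitor of such kinases from an imprinted locus, fell with a log2 fold change of -1.97 (edgeR adjusted p = 0.02). SW480-B had 73.5 to 99.5 CPM of CDK6. CTNNB1, which encodes beta-catenin, fell from 1449, 1763 and 1596 CPM to 575, 808 and 803 CPM (log2 fold change -1.14, edgeR adjusted p = 0.029).

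Genes of antigen presentation had a median of 1.01 on the log2 scale. EdgeR called none of the 25 tested, 11 had an unadjusted p under 0.05, and DESeq2 called 7, each higher. In 13 of the 25 every activated library was above every parental one, against 2905 of the 16100 tested genes, and 0 were below. HLA-C had 238, 270.2 and 349 CPM in SW480 and 474, 463 and 464 CPM in SW480-gRNA-B-all (edgeR adjusted p = 0.068). Of the 37 interferon-stimulated genes tested, 3 were called higher and 2 lower. IRF7, a factor of interferon induction, rose from 12.1, 12.4 and 15.3 CPM to 36.3, 25.3 and 26.9 CPM (log2 fold change 1.15, edgeR adjusted p = 0.029), with OAS1 and OASL at 1.29 (edgeR adjusted p = 0.048) and 2.55 (edgeR adjusted p = 0.049), while MX2 and HERC5 were lower at -1.77 (edgeR adjusted p = 0.03) and -2.73 (edgeR adjusted p = 0.02). Of the 26 NF-kB targets, cytokines and chemokines tested, 3 were called higher and 1 lower. CXCL16 rose from 13.1, 30.5 and 36.5 CPM to 70.2, 82.5 and 88.8 CPM, CX3CL1 from 2.41, 2.48 and 2.29 CPM to 5.76, 5.58 and 5.98 CPM, and LIF from 31.02, 36.3 and 56.6 CPM to 102, 83.96 and 85.3 CPM (edgeR adjusted p = 0.046, 0.035 and 0.042). CXCL3 fell with a log2 fold change of -2.98 (edgeR adjusted p = 0.025). Of the 30 complement, coagulation and innate defence genes tested, 3 were called higher and 3 lower; SERPING1, which inhibits the start of the complement cascade, rose from 0.0689, 0.620 and 0.546 CPM to 6.81, 3.54 and 3.41 CPM (log2 fold change 3.46, edgeR adjusted p = 0.036), and CD46, a complement regulator on the cell surface, fell from 531, 517 and 413 CPM to 198, 253 and 247 CPM (log2 fold change -1.07, edgeR adjusted p = 0.025).

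Transcription factors of development were called in both directions. Of the 54 homeobox genes tested, 5 were called higher and 7 lower. Within the HOX clusters, HOXD10 rose from 2.13, 2.41 and 2.001 CPM to 10.9, 9.65 and 10.6 CPM, a log2 fold change of 2.24 (standard error 0.25, edgeR adjusted p = 0.008), and HOXD11 rose by 1.97 (edgeR adjusted p = 0.024). HOXA9 fell from 67.3, 61.9 and 62.6 CPM to 17.5, 24.3 and 23.1 CPM, a log2 fold change of -1.57 (standard error 0.18, edgeR adjusted p = 0.0087). MEIS2 and MEIS3, partners of HOX proteins, rose by 1.17 and 1.30, and MSX2 and BARX2 fell with log2 fold changes of -2.42 and -3.90 (edgeR adjusted p = 0.033, 0.029, 0.016 and 0.024). Of the 40 SOX, FOX, GATA, KLF and ETS factors tested, 1 was called higher and 10 lower. EHF, an ETS factor of epithelia, fell from 47.4, 66.2 and 30.7 CPM to 7.05, 1.74 and 2.27 CPM (log2 fold change -3.71, edgeR adjusted p = 0.021), and ETV1, another ETS factor, from 88.96, 57.8 and 20.5 CPM to 2.13, 0.100 and 0.200 CPM (log2 fold change -6.10, edgeR adjusted p = 0.028). SOX5 and FOXP2 were at 0 counts in the activated line and at least 50.9-fold and 37.6-fold lower, and KLF9 rose by 1.81 (edgeR adjusted p = 0.037). Of the 28 nuclear receptors tested, 1 was called lower: ESRRG, an orphan receptor related to the estrogen receptors, had 35.4, 30.3 and 9.57 CPM in SW480 and 1 count in the activated line, a ratio of 2268 (95% counting interval 407 to 89621).

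Among 28 tested genes of DNA methylation and Polycomb, 4 were called lower and 0 higher, and 3 of them were the TET dioxygenases, which oxidise 5-methylcytosine. TET3 had 196, 136 and 51.5 CPM in SW480 and 34.6, 34.9 and 35.97 CPM in SW480-gRNA-B-all, TET2 had 102, 76.5 and 37.9 CPM and 13.5, 18.6 and 19.5 CPM, and TET1 had 8.12, 10.3 and 3.71 CPM and 1.19, 1.70 and 1.40 CPM. In all of them replicate 3 of SW480 was the lowest parental library. The log2 fold changes were -2.37 (edgeR adjusted p = 0.028), -2.08 (edgeR adjusted p = 0.026) and -1.87 (edgeR adjusted p = 0.0498) for TET1, TET2 and TET3, and KDM6A, a demethylase of the Polycomb mark, was at -1.02 (edgeR adjusted p = 0.035). SW480-B was close to the activated line for TET2, at 15.1 to 23.9 CPM. Imprinted genes were called in 3 of 13 tested cases, IGF2, CDKN1C and MEST, each lower. MEST had 186, 237 and 155 CPM in SW480 and 62.5, 72.4 and 69.4 CPM in the activated line, a log2 fold change of -1.51 (standard error 0.19, edgeR adjusted p = 0.012). Of the list of cancer-testis, germline and related genes only 6 of 36 could be tested. Its members MAGEC2, a cancer-testis gene, and MAGED1 were called lower, at -6.47 (edgeR adjusted p = 0.024) and -1.21 (edgeR adjusted p = 0.036).

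By change in CPM rather than in fold, the 8 largest rises included BASP1, PPME1, CCN1, FSCN1, PEA15, C2CD3 and HSF1. PPME1, a methylesterase of the phosphatase PP2A, had 99.6, 279.9 and 277 CPM in SW480 and 1019.5, 959 and 944 CPM in the activated line, a log2 fold change of 2.15 (standard error 0.40, edgeR adjusted p = 0.028). Its neighbour C2CD3, a protein of the centriole, had 63.4, 111 and 95.6 CPM and 268, 242 and 245 CPM, a log2 fold change of 1.48 (standard error 0.23, edgeR adjusted p = 0.018). For both, every activated library lay above every library of SW480 and of SW480-B, and against SW480-B the log2 fold changes were 2.49 (edgeR adjusted p = 9.6e-04) and 1.77 (edgeR adjusted p = 0.0015). PEA15, a death effector domain protein that binds ERK, rose from 84.7, 116 and 156 CPM to 326, 289 and 281 CPM (log2 fold change 1.33, edgeR adjusted p = 0.027). Beside KRT5, SLC1A5 and CTNNB1, the largest falls in CPM included APCDD1 and NKD1, feedback inhibitors of WNT signalling, at -2.34 (edgeR adjusted p = 0.043) and -2.75 (edgeR adjusted p = 0.013), the ribosomal protein gene RPL28 at -1.13 (edgeR adjusted p = 0.048), and PPFIBP1, a liprin, from 854, 915 and 888 CPM to 352, 416 and 420.2 CPM at -1.17 (edgeR adjusted p = 0.016).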

How the data were processed

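RNA of the parental line and of both BASP1-expressing lines was sequenced, with 3 libraries of each. The deposited files hold raw counts per gene, made by the authors after alignment to GRCh37 with the Ensembl annotation, 1 file per library. The counting program and its strand setting are not given in the sources used here. Deposited alignment metrics gave shares of aligned bases. The closing summary lines of each count file were removed, and 55665 of 63677 identifiers, with 99.4% of counts, matched a symbol.

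Counts were tested with edgeR 4.0.16 (quasi-likelihood test with robust dispersion, TMM scaling, filterByExpr with a least count of 10 and a least total of 15) in R 4.3.3, between the 6 libraries of the lines compared and separately against SW480-B. P-values were two-sided and adjusted over all tested genes by Benjamini-Hochberg, and a gene was called at an adjusted p under 0.05 and a change over 2-fold. The scripts were tested on simulated data. DESeq2 1.42.0, other scalings and filters, a fit of all 9 libraries, a replicate block and the omission of each library were alternatives. Counting intervals are at 95% and cover counting error only. Replicate numbers were not treated as pairs, since they are not said to mark a shared culture.

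Members and gene lists were chosen with earlier results of these data known. Genes were named by rule: BASP1, the 12 largest rises and falls among called genes with at least 1 CPM in the higher line, genes called whichever library was left out, at most 5 called members in each direction of a list (or the 2 members with most counts where fewer than 2 were called), the 8 largest rises and falls in CPM, and cell type markers. MYO10, RELA, ESPN, JAG1, NOTCH1, NCAM1, GAP43, PERP, CCN2 and HSPA1A were named after their values were seen. Promoter sequences came from RefSeq (GRCh38.p14) and are placed by that build only, apart from the GRCh37 gene positions. The columns held no other samples. The guide sequences and some results for single genes and 1 list are not reported here.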

Additional observations from a re-analysis of the deposited data

How the results depend on the processing

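Calls against SW480 numbered 304 higher and 751 lower, and kept within 1.5 times of that with RLE scaling, without a filter, with a filter at 1 CPM and without a limit on the fold. A fit of all 9 libraries called 516 higher, DESeq2 called 818 higher and 1282 lower, and summing replicates 2 and 3 of SW480-gRNA-B-all, the closest pair, left 20 higher and 77 lower. Leaving out 1 library each gave 1 to 961 higher and 7 to 1698 lower, the lowest without replicate 2 of SW480 and the highest without its replicate 3. The cause was not tested, and each of these fits also had 1 library fewer. Calls against SW480-B numbered 366 higher and 693 lower. They were 181 higher in the fit of all 9 libraries, 141 higher and 305 lower with the summed replicates, and 135 to 607 higher and 285 to 941 lower with 1 library left out. BASP1 (log2 fold change 5.21) missed the threshold without a filter (5.28, edgeR adjusted p = 0.079) and with the summed replicates (5.11, edgeR adjusted p = 0.083). With 1 library left out it ran from 4.71 to 5.87, with an edgeR adjusted p of 0.0037 to 0.12. BASP1 and the 206 called genes taken up by the naming rule kept their direction under every alternative that gave them a value. Genes that were not called could change sign, as did VIM, which ran from -0.38 to 0.92 on the log2 scale with 1 library left out.

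Replicate numbers did not meet the condition for pairs: deviations from the line means of same-numbered libraries of SW480 and SW480-gRNA-B-all correlated at 0.30, -0.03 and 0.28. A replicate block in the model gave 341 higher and 858 lower calls against SW480 and 504 and 885 against SW480-B, and BASP1 had a log2 fold change of 5.62 (edgeR adjusted p = 0.032). Depth limits genes near 0, since 3 counts allow up to 0.107 CPM per library.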

Other observations

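Called genes lay in runs along the genome. Runs of at least 4 genes called in the same direction, with the starts of successive called genes at most 500000 bases apart, numbered 5 for rises and 17 for falls. The genes named here were chosen by position after their values were seen, positions are those of GRCh37, and how many runs a random order of the genes would give was not tested. On chromosome 11, from 111116450 to 111326355, all 4 tested genes were called lower, with a median log2 fold change of -7.33. They were POU2AF1, POU2AF2 and POU2AF3, coactivators of POU-domain transcription factors of which POU2AF2 and POU2AF3 act in tuft cells of the gut, and COLCA1. On chromosome 20, from 22528301 to 23171056, all 4 tested genes were called lower (median -4.94), among them FOXA2 and the adjoining LINC00261. On chromosome 9, from 136397286 to 136605077, ADAMTSL2, DBH, which makes noradrenaline, DBH-AS1 and SARDH were called lower, again 4 of 4 tested genes, and reads of DBH and its antisense partner may be shared. On chromosome X, from 140335596 to 141293076, the cancer-testis genes SPANXC, SPANXD, MAGEC3 and MAGEC2 were called lower, and the reads of such near copies may be shared among them. Of the keratin genes and their neighbours on chromosome 17, from 39114669 to 39781094, 7 of 16 tested were called lower, and on chromosome 7, from 27180671 to 27290112, HOXA5, HOXA9, HOXA10 and EVX1 were called lower among 11 tested.

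Rises formed a run on chromosome 11 from 72396114 to 73080433, where ARAP1, ATG16L2, ARHGEF17-AS1 and ARHGEF17 were 4 of 8 tested genes. C2CD3 and PPME1 lie further along, the former on chromosome 11, 73723763 to 73882255, and the latter on chromosome 11, 73882312 to 73965748. In the activated libraries ARHGEF17 stood at 74.9 to 79.2 CPM, C2CD3 at 242 to 268 CPM and PPME1 at 944 to 1019.5 CPM. On chromosome 17, from 40811302 to 40949084, TUBG2, PLEKHH3, CNTNAP1 and WNK4 were called higher among 6 tested genes. Medians of the log2 fold change differed between chromosomes, from -0.63 over the 163 tested genes of chromosome 21 and -0.51 over the 223 of chromosome 18 to 0.30 over the 979 of chromosome 17, against -0.05 over all genes. Chromosome X held 2 genes called higher and 60 lower among 503 tested.

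By gene type, 6.94% of 13136 protein-coding genes, 6.25% of 1729 long noncoding RNAs and 2.84% of 740 pseudogenes were called. Pseudogene reads may be shared with their parent genes.

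The 250 bases before the start site were searched on both strands for 4 short motifs. CTTTGAT, the TCF/LEF core, was found before 2 of 201 genes called higher (0.995%) and 13 of 532 called lower (2.44%), against 1.31% of 11463 tested genes and 2.28% of 27305 promoters in all. TGANTCA, the AP-1 core, was found before 13 genes called higher (6.47%) and 24 called lower (4.51%), against 3.90% of tested genes and 6.60% of all promoters. GGAATG, the TEAD core, was found before 21 genes called higher (10.4%) and 54 called lower (10.2%), against 9.52% of tested genes. GGGCGG was found before 63.2% of genes called higher and 58.1% of those called lower, against 67.3% of tested genes. These shares are a description, and a match is not a binding site.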
